A study of Mus musculus with 14 samples.

Results

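The genes that encode the Sin3 histone deacetylase complex and its partners were examined for Sin3A and Sin3B peaks at their own starts. The set was a list of 32 mouse genes chosen by name, with earlier results of these data known. Of these, 26 were among the 27025 genes with a start in the RefSeq promoter table (assembly GRCm38.p6). The peaks were mapped by ChIP-seq in C2C12, a mouse muscle precursor line of C3H background whose dividing myoblasts fuse into multinucleate myotubes. The myoblasts had grown in 10% fetal bovine serum. Myotubes had formed after confluent cultures were switched to 2% horse serum, and diluted trypsin had been used to detach them from cells that had not differentiated. Of 11 immunoprecipitation samples, Sin3A gave 2 at each stage, and Sin3B gave 2 from myoblasts and 5 from myotubes. A further 3 input samples were not analysed here.

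The samples of each group carried byte-identical peak files. Each group is therefore 1 peak list with no replicate, and groups could not be tested against each other. Sin3A had 691 peaks in myoblasts and 759 in myotubes, and Sin3B had 2387 and 3769. They give intervals only, with no height, and the depth behind them is unknown. A gene without a peak is therefore not shown to lack the protein. Per the labels, the antibodies to Sin3A and Sin3B carry 1 shared catalogue number, and the Sin3A myoblast samples used 2 antibody lots. What the antibodies share cannot be told apart from what the proteins share. No RNA was measured, so the cell type could not be checked by marker genes.

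SIN3 proteins are scaffolds without DNA-binding or enzyme activity of their own. They hold the deacetylases HDAC1 and HDAC2, which remove acetyl groups from histones and so dampen transcription, together with a core of small subunits. DNA-binding factors bring the complex to genes, among them the MXD proteins and MNT, which pair with MAX on E-boxes and oppose MYC, and the forkhead factors FOXK1 and FOXK2. In differentiating cells these complexes are known for holding down genes of cell division.

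A gene was called bound in a list when the centre of a peak lay within 5 kb of one of its starts. The peaks are in another, unnamed build than the gene table, so each block of 10 Mb was moved by the shift, in steps of 1 kb, that put most peak centres within 1 kb of a start. Of 267 blocks, 231 reached 50% and were kept. They held 86.1% of all peaks, and 74.9% of these then lay within 1 kb of a start, against 7.97% of all peaks before any shift. As shifts were picked and blocks kept for nearness to starts, part of this rise is built in. In 62 of the 231 kept blocks, with 648 peaks, the shift was not clear. It placed fewer than 1.5 times as many peaks near starts as the next best shift. Of the 26 genes with a start, 24 lay in kept blocks. Suds3 and Rbbp7 had a start but lay outside kept blocks. Hdac1, Sap130, Brms1, Arid4a, Kdm5a and Foxk1 had no start in the table and are described apart. The rule for the shift favours positions near starts by construction, but the same 24 genes were assessed and the same number called in each list when the listed genes took no part in fixing it.

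Promoters of 8 of these genes are printed first, since the results turn on whether and where peaks sat beside them. The first 6 had a peak, and those of Sin3a and Sin3b, the scaffold genes themselves, had none. Each is the 250 bases before a RefSeq start, read 5′ to 3′ in the gene's own direction, with positions of GRCm38.p6, from the reference strain and not from the C3H line. Where a gene has several starts, the one nearest to a peak was taken, or the first listed where there was no peak. Capitals mark any of the short motifs searched for, which are spelled out with their counts further on.
Mnt, chr11:74830674-74830923, plus strand: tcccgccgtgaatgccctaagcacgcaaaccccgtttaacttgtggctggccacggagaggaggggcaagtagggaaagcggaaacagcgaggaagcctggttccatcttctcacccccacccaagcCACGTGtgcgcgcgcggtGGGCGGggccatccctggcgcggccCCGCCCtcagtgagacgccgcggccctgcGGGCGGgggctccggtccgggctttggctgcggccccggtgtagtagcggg
Mxd3, chr13:55329732-55329981, minus strand: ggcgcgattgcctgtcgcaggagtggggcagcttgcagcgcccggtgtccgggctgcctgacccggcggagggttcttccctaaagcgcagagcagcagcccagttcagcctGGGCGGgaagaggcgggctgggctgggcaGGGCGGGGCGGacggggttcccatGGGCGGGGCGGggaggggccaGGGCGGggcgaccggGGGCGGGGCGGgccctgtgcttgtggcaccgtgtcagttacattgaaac
Foxk2, chr11:121259737-121259986, plus strand: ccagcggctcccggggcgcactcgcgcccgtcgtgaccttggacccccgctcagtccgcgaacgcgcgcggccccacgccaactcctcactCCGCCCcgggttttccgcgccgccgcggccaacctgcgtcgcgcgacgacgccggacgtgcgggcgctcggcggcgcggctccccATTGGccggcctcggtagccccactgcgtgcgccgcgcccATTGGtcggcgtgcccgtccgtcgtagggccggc
Phf12, chr11:77982566-77982815, plus strand: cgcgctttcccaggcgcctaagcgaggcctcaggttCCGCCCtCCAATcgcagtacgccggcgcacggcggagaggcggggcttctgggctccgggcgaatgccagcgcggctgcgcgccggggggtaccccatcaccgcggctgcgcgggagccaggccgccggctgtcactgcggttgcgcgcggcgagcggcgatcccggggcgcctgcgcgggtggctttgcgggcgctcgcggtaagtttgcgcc
Rbbp4, chr4:129335371-129335620, minus strand: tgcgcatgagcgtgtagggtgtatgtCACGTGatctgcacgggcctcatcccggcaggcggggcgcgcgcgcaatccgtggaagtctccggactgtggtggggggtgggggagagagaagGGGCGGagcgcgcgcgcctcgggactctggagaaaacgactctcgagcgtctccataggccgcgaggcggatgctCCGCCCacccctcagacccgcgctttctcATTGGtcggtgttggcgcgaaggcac
Hdac2, chr10:36974294-36974543, plus strand: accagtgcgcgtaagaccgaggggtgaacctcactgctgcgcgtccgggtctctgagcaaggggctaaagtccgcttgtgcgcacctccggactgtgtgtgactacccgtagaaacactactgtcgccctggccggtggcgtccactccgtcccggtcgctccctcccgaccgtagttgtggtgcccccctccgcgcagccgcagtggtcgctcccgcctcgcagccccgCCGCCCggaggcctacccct
Sin3a, chr9:57076126-57076375, plus strand: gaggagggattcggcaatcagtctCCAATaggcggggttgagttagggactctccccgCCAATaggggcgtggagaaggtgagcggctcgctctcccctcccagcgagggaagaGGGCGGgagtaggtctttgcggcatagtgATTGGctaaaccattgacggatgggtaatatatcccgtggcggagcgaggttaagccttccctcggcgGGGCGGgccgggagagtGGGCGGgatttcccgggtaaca
Sin3b, chr8:72723020-72723269, plus strand: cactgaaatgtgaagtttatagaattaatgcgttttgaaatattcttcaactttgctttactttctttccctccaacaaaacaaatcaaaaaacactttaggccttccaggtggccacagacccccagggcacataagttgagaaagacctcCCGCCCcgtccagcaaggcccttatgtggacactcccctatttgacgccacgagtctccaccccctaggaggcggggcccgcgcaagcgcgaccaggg

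Sin3 peaks were common at the listed genes of the complex and its partners, most often of Sin3B in myotubes. At least 1 list had a peak at 13 of the 24 genes (54.2%), beside 17.3% of all 24271 assessed genes and 23.3% of the 15801 protein-coding ones. Sin3B in myotubes was listed at 11 genes (45.8%), beside 14.0% of all and 18.9% of protein-coding genes. Sin3A in myoblasts was listed at 6 genes (25.0%), beside 1.64% of all and 2.12% of protein-coding genes. By role these were 2 readers or demethylases, 3 genes of the MAX network and 1 forkhead partner. None of the 6 was a scaffold, deacetylase or core subunit gene. Only 7 of 12 core subunit genes and 1 of 2 deacetylase genes were assessed, however. Arid4a, a core subunit gene with no start in the table, had a Sin3A myoblast peak at a gene end and is described apart. Sin3A in myotubes was listed at 2 genes (8.33%), beside 3.15% and 4.25%. For Sin3B in myoblasts the count of 3 genes (12.5%) was close to the protein-coding background of 12.3%, with 9.01% over all genes. The genes were chosen with earlier results of these data known. These are counts over a chosen set of genes that share no sampling, so they carry no test.

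**Figure D1:**
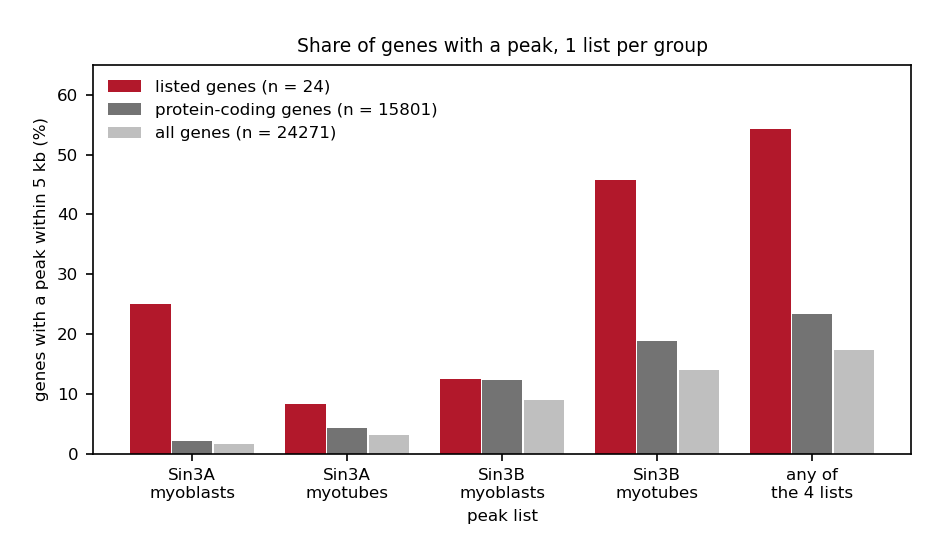
Share of genes, in percent, with a peak centre within 5 kb of a start in each of the 4 lists and in any of them. Bars are the 24 assessed genes of the complex and its partners (red), protein-coding genes (dark grey) and all assessed genes (light grey). Each bar is 1 list, or any of the 4 in the last group, and there are no error bars. The red bar for Sin3B in myoblasts (12.5%) is level with that of protein-coding genes (12.3%), while the other red bars stand higher.

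The bound genes can also be split by list. Of the 13 bound genes, 6 (46.2%) had Sin3A in myoblasts, beside 9.48% of the 4207 genes bound in any list. By contrast, 3 (23.1%) had Sin3B in myoblasts, beside 52.0%. For Sin3B in myotubes the shares were 84.6% and 80.7%, and for Sin3A in myotubes 15.4% and 18.2%. Arid4a, Brms1 and Kdm5a, which have no start in the table and are left out here, each had Sin3B in myoblasts at a gene end. With gene ends counted for such genes, 6 of 16 bound members had Sin3B in myoblasts. Leaving out the narrower peaks lowers any count by construction, and the count of Sin3A in myoblasts moved little. With each list restricted to its 691 widest peaks, Sin3B was listed at 1 of 24 genes in myotubes (beside 3.0% of all genes) and at 0 in myoblasts (beside 2.91%). This bears little on Sin3A, whose myoblast list has 691 peaks in all and whose myotube list has 759. With each list restricted to peaks above its own median width, Sin3A was listed at 5 genes in myoblasts (beside 0.968% of all genes) and 0 in myotubes (beside 1.5%), and Sin3B at 1 in myoblasts (beside 5.02%) and 4 in myotubes (beside 7.77%). At the member genes, 9 of the 13 Sin3B myotube peaks were narrower than the median of that list, and their median width was 394 bp against 545 bp. Both Sin3A myotube peaks and 2 of the 7 Sin3A myoblast peaks were narrower than their list's median.

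**Figure D2:**
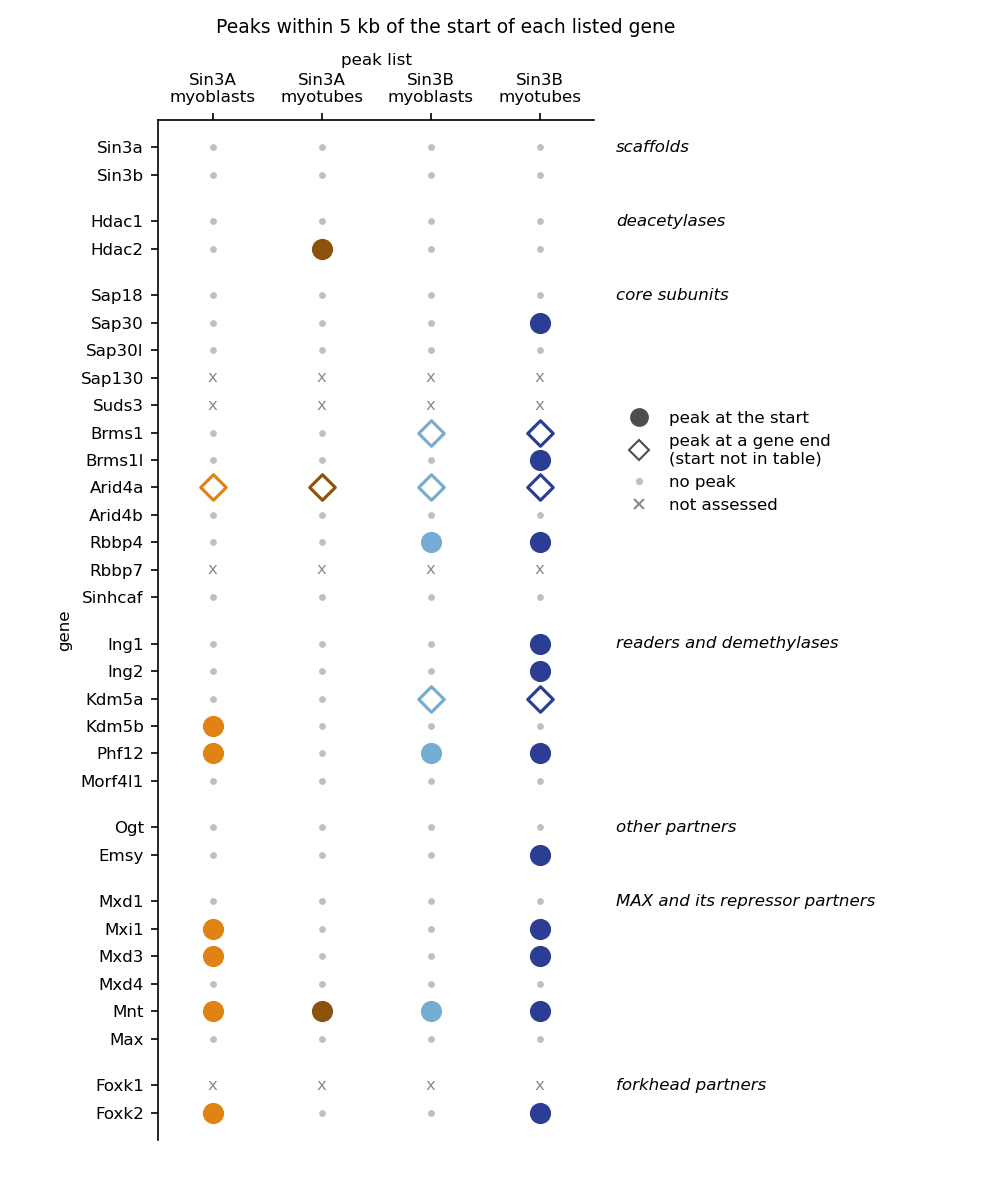
Each row is a gene, grouped by role, and each column 1 of the 4 peak lists; filled circles mark a peak centre within 5 kb of a start, open diamonds a peak within 5 kb of a gene end where the table has no start, small dots no peak, and crosses genes that were not assessed. The last column, Sin3B in myotubes, holds 11 of the filled circles, and Mnt is the gene with a filled circle in all 4 columns.

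Neither scaffold gene carried a peak of its own product. Sin3a, with 2 starts in the table, and Sin3b, with 1, had no peak centre of any list within 10 kb. Both lay in blocks with a clear shift: 18 of 32 and 46 of 61 peaks fell within 1 kb of a start, against 11 and 15 for the next best shift. Of all assessed genes, 82.7% likewise had no peak in any list.

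The deacetylase gene Hdac2 had a Sin3A peak in myotubes and no other. This peak was 455 bp wide (chromosome 10 at 36694608 to 36695062, in the build of the peak files, as for all peaks below) and centred 290 bp inside the gene. Its width was at the 44.4th percentile of its list. A Sin3A myotube peak with no other list was found at 85 of 24271 genes (0.35%). For Hdac1 no peak centre lay within 5 kb of either gene end.

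Of 7 assessed genes for core subunits, 3 had a peak of Sin3B in myotubes, beside 14.0% of all genes, and 1 of these also had one in myoblasts, beside 9.01%. None had a Sin3A peak, which at 1.64% and 3.15% of all genes says little for 7 genes. RBBP4 is a histone-binding chaperone subunit shared with other deacetylase complexes. At Rbbp4, the Sin3B myoblast peak (378 bp, chromosome 4 at 129012838 to 129013215) was centred 656 bp before the start, and the Sin3B myotube peak (258 bp, 129012296 to 129012553) 54 bp before it. The peaks were 284 bp apart and did not overlap, and the myoblast peak lay 58 bp from the start of Zbtb8os, nearer than to Rbbp4. Sap30, which encodes a subunit that binds the scaffold directly, had a Sin3B myotube peak of 758 bp (chromosome 8 at 59965883 to 59966640), at the 79.4th percentile of width. It was centred 401 bp before Sap30 and 298 bp from 2500002B13Rik. The shift of this block was not clear, with 5 of 10 peaks near starts against 4 for the next best. Brms1l, for a paralogue of the subunit BRMS1, had a Sin3B myotube peak of 537 bp (chromosome 12 at 56937303 to 56937839) centred 204 bp inside the gene. The subunit genes Sap18, Sap30l, Arid4b and Sinhcaf had no peak.

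Suds3, for the subunit that stabilises the deacetylases in the complex, fell just outside the block rule. Its block had 25 of 51 peaks near starts (49.0%), under the 50% asked for. With the looser limit of 40%, a Sin3B myotube peak of 355 bp (chromosome 5 at 117565634 to 117565988) lay 183 bp inside the gene.

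Of 5 assessed genes for readers and demethylases of the complex, 4 had a peak in at least 1 list, beside 17.3% of all and 23.3% of protein-coding genes. PHF12 is a PHD-finger protein of a SIN3B-containing complex at transcribed genes. At Phf12, Sin3B was listed at both stages with peaks that overlapped by 454 bp: 574 bp in myoblasts (chromosome 11 at 77795997 to 77796570) and 546 bp in myotubes (77796117 to 77796662), centred 467 and 573 bp inside the gene. The Sin3A myoblast peak (434 bp, 77792567 to 77793000) was separate, 2996 bp away from the nearest of these and 3033 bp before the start. The Sin3A and Sin3B peaks at Phf12 were thus at different sites. This combination of lists occurred at 90 of 24271 genes (0.371%). Morf4l1, whose chromodomain product works with PHF12, had no peak.

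Kdm5b, a demethylase of the histone mark of active promoters, was the gene with Sin3A in myoblasts and nothing else. It had 2 such peaks, of 535 bp (chromosome 1 at 136453509 to 136454043) and 374 bp (136456579 to 136456952), centred 2403 bp before and 587 bp inside the start. This pattern occurred at 79 of 24271 genes (0.325%).

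The genes Ing1 and Ing2 encode PHD-finger proteins that read that same mark. At Ing1, which has 5 starts in the table, 2 short Sin3B myotube peaks of 118 bp (chromosome 8 at 11555434 to 11555551) and 275 bp (11555942 to 11556216) were listed, at the 0.902nd and 4.48th percentiles of width. At Ing2, a Sin3B myotube peak of 481 bp (chromosome 8 at 48760555 to 48761035) was centred 635 bp before the start and 403 bp from AA386476.

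Of the other partners, Emsy had 2 Sin3B myotube peaks, of 341 bp (chromosome 7 at 105804303 to 105804643) and 634 bp (105804815 to 105805448), centred 97 bp inside and 554 bp before its nearest start. EMSY is a repressor found with SIN3 and KDM5A. Sin3B in myotubes and no other list was the pattern at 5 members (Sap30, Brms1l, Ing1, Ing2 and Emsy), beside 6.1% of all genes, and Sin3B at both stages alone at 1 (Rbbp4), beside 4.56%. The gene Ogt, for the enzyme that adds single sugar groups to nuclear proteins, had no peak, but its block on chromosome X was unclear (7 of 11 peaks near starts against 5).

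Genes of the MAX network, whose products recruit SIN3, held 3 of the 6 Sin3A myoblast calls, from 6 assessed genes (1.64% of all genes had such a call). Mnt, Mxi1 and Mxd3 were bound and Mxd1, Mxd4 and Max were not. The shift at Mxd4 was not clear (32 of 63 peaks against 23). Mnt was the assessed member with a peak in all 4 lists, as were 80 of 24271 genes (0.33%). Its peaks on chromosome 11 lay at 74645059 to 74645735 for Sin3A in myoblasts (677 bp), at 74643499 to 74643910 for Sin3A in myotubes (412 bp), at 74643648 to 74644119 for Sin3B in myoblasts (472 bp) and at 74644369 to 74645459 for Sin3B in myotubes (1091 bp, at the 95.1st percentile of its list).

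As placed by the shift, these 4 peaks formed a pair around the start and a pair farther into Mnt. Peaks near starts in this block had a median offset of 449.5 bp, so the distances may be wrong by such an amount. Each pair joined 1 protein in myoblasts with the other protein in myotubes. Sin3A in myotubes and Sin3B in myoblasts overlapped by 263 bp, centred 220 and 41 bp before the start. Sin3A in myoblasts and Sin3B in myotubes overlapped by 401 bp, centred 1472 and 989 bp inside the gene. Between the pairs there was no overlap, with gaps of 249 bp to 1148 bp. For each protein, then, the myoblast and the myotube peak at Mnt did not touch (gaps of 1148 bp for Sin3A and 249 bp for Sin3B), nor did the peaks of both proteins at 1 stage (939 bp in myoblasts and 458 bp in myotubes).

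Mxi1 and Mxd3 had the second of these combinations alone, Sin3A in myoblasts with Sin3B in myotubes. At Mxd3 the Sin3A myoblast peak (460 bp, chromosome 13 at 55431181 to 55431640) overlapped the Sin3B myotube peak (371 bp, 55431424 to 55431794) by 217 bp, centred 679 and 877 bp before the start. At Mxi1 the Sin3A myoblast peak was wide (816 bp, chromosome 19 at 53387960 to 53388775, at the 97.7th percentile) and wholly contained the Sin3B myotube peak (268 bp, 53388481 to 53388748, at the 3.93rd percentile). Both lay far inside the gene, at 2861 and 3108 bp from the start, and a limit of 1 or 2 kb lost Mxi1. The forkhead gene Foxk2 had the same combination without overlap: a Sin3A myoblast peak of 257 bp (chromosome 11 at 121120937 to 121121193) 77 bp inside the start, and a Sin3B myotube peak of 394 bp (121121639 to 121122032) at 848 bp. Hence 3 of 24 genes had Sin3A in myoblasts and Sin3B in myotubes and no other peak, beside 69 of 24271 genes (0.284%). Counting Mnt and Phf12, 5 of 24 genes (20.8%) had peaks of these 2 lists, beside 1.13% of all genes.

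**Figure D3:**
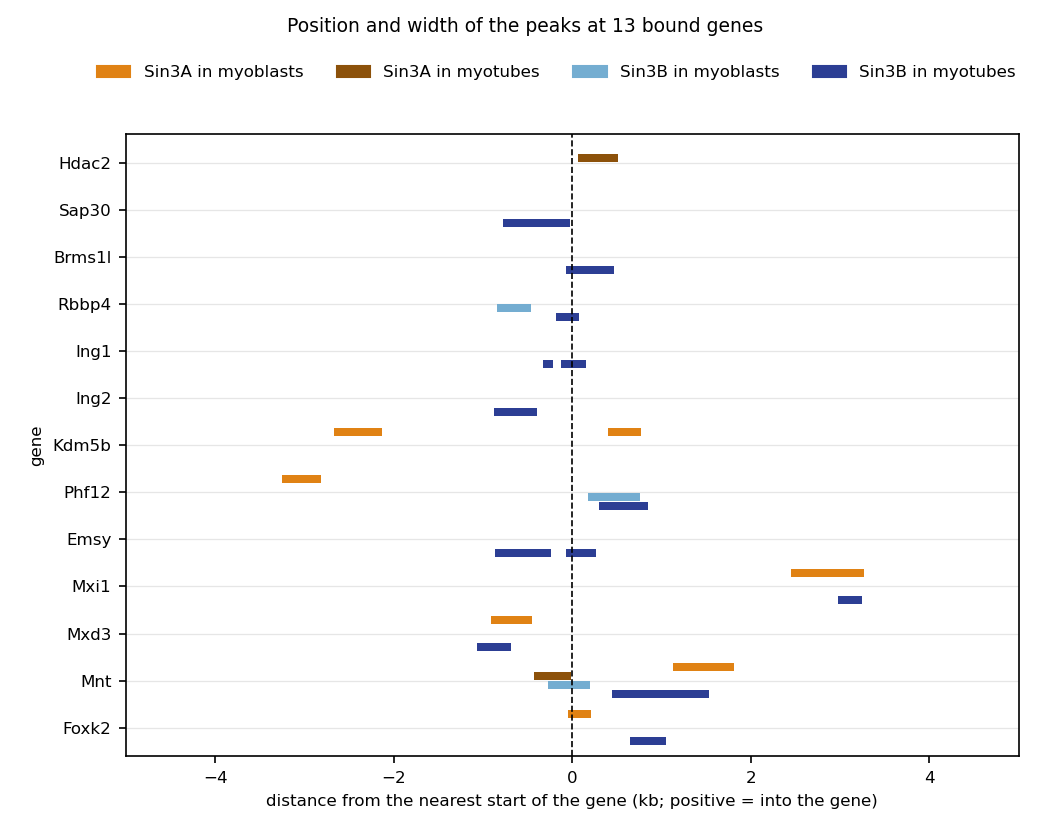
Horizontal bars show each peak counted at the 13 bound genes, drawn to its width, by distance in kb from the nearest start of the gene (dashed line; positive values lie inside the gene) and coloured by list. At Mnt, as placed by the shift, the Sin3A myoblast and Sin3B myotube peaks overlap between 0 and 2 kb. The other Mnt peaks overlap near the start. At Mxd3 and Mxi1 the Sin3A myoblast and Sin3B myotube peaks overlap.

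At genes called in more than 1 list, the peaks of the lists did not always coincide. Over all 6 pairs of lists there were 13 cases of a member bound in both lists of a pair, and in 5 of them (38.5%) the peaks overlapped by at least 1 bp. Over all assessed genes the overlap held in 2924 of 3177 cases (92.0%). Mnt alone gave 6 of the 13 cases, so they are not independent, and the difference between the shares was not tested. Members without a start in the table are not among the 13 cases. At Arid4a, Brms1 and Kdm5a, which are such members, peaks overlapped in every pair of lists called at the gene. When overlap of the Sin3A and Sin3B peaks of 1 stage was asked for, the count of members with both proteins fell from 2 to 0 in myoblasts and from 1 to 0 in myotubes.

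Both proteins were listed at the same stage at 2 members in myoblasts (Mnt and Phf12, beside 0.853% of all genes) and at 1 in myotubes (Mnt, beside 2.68%). Sin3A without Sin3B was listed at 4 members in myoblasts (beside 0.791%) and 1 in myotubes (beside 0.47%). Sin3B without Sin3A was listed at 1 in myoblasts (beside 8.15%) and 10 in myotubes (beside 11.3%).

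By stage, Sin3B was listed in myotubes only at 8 members (33.3%, beside 7.61% of all genes), at both stages at 3 (Rbbp4, Phf12 and Mnt, beside 6.38%) and in myoblasts only at 0 (beside 2.63%). Sin3A was listed in myoblasts only at 5 members (20.8%, beside 1.12%), at both stages at Mnt (beside 0.523%) and in myotubes only at Hdac2 (beside 2.62%). Myotube-only calls thus outnumbered myoblast-only calls for Sin3B, and the reverse held for Sin3A. Across all genes, myotube-only calls were the more frequent class for both proteins. With a limit of 1 kb the Sin3A classes came close, with 3 members in myoblasts only and 2 in myotubes only. With 1 list per group, a gene called at 1 stage is not shown to have gained or lost the protein.

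Distances must be read with the 1 kb steps of the shift in mind. In the members' blocks the median offset of peaks within 1 kb of a start ran from -503 to 607 bp, and for the block of Mnt and Phf12 it was 449.5 bp, so single distances may be wrong by such amounts. Widths, overlaps and gaps between peaks do not depend on the shift. Over all 25 member peaks the median distance was 573 bp, and 20 lay within 1 kb. The calls nearest to the limit of 5 kb were Mxi1 and Phf12, and the nearest peak beyond it was a Sin3B myoblast peak 7511 bp from Mxd3, which sat 165 bp from the start of Prelid1.

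Of the 6 genes without a start in the table, 4 had their ends in kept blocks, and 3 of these had a peak. Arid4a, for a subunit that binds the retinoblastoma protein, had peaks of all 4 lists centred 9, 2, 167 and 26 bp from its lower-numbered end, for Sin3A in myoblasts, Sin3A in myotubes, Sin3B in myoblasts and Sin3B in myotubes. Their widths were 527, 482, 330 and 472 bp, and each overlapped each of the others by 208 bp or more (chromosome 12, 72115750 to 72116354 in all). This was the single place among the members where all lists coincided. Kdm5a, a demethylase related to KDM5B, had Sin3B peaks of 1330 bp in myoblasts (chromosome 6 at 120313597 to 120314926, the 99.5th percentile) and 854 bp in myotubes (120313759 to 120314612), with centres 162 and 86 bp from an end. Their centres were 108 and 184 bp from the start of Ccdc77. Brms1 had Sin3B peaks of 621 bp in myoblasts and 724 bp in myotubes, 72 and 167 bp from its lower-numbered end (chromosome 19 at 5041126 to 5041892). A further 2 Sin3B peaks, of 904 bp in myoblasts and 771 bp in myotubes (5050636 to 5051539), lay 1175 and 1201 bp from its other end, and nearer to the start of Rin1 (272 and 298 bp). Which end of Brms1 is its start is not given in the table. With gene ends counted for these genes, 16 of 28 members had a peak, beside 17.3% of all genes. Sin3B in myoblasts was listed at 6 of 28 (beside 9.02%), against 3 of 24 from starts alone. Sin3A at both stages was listed at 2, beside 0.523% of all genes by starts. These 4 genes were tried at both ends and all other genes at starts only, so the shares are not measured alike.

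The promoters of the members were rich in G and C. The 250 bases before the start held a median of 67.6% G and C at the 13 bound members (54.4 to 78.4%) and 58.0% at the 11 unbound ones (48.8 to 78.4%), beside 60.8% at all bound genes and 50.4% at unbound genes. CpG dinucleotides, relative to the number that the C and G content gives, had medians of 0.868 and 0.874 at bound and unbound members, beside 0.804 at all bound genes and 0.3 at unbound genes. Bound and unbound members therefore overlapped widely in both measures. Among protein-coding genes with over 60% G and C, 34.0% were bound in some list, and 8 of 13 such members were. Among the others, 17.5% were bound, and 5 of 11 such members were.

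**Figure D4:**
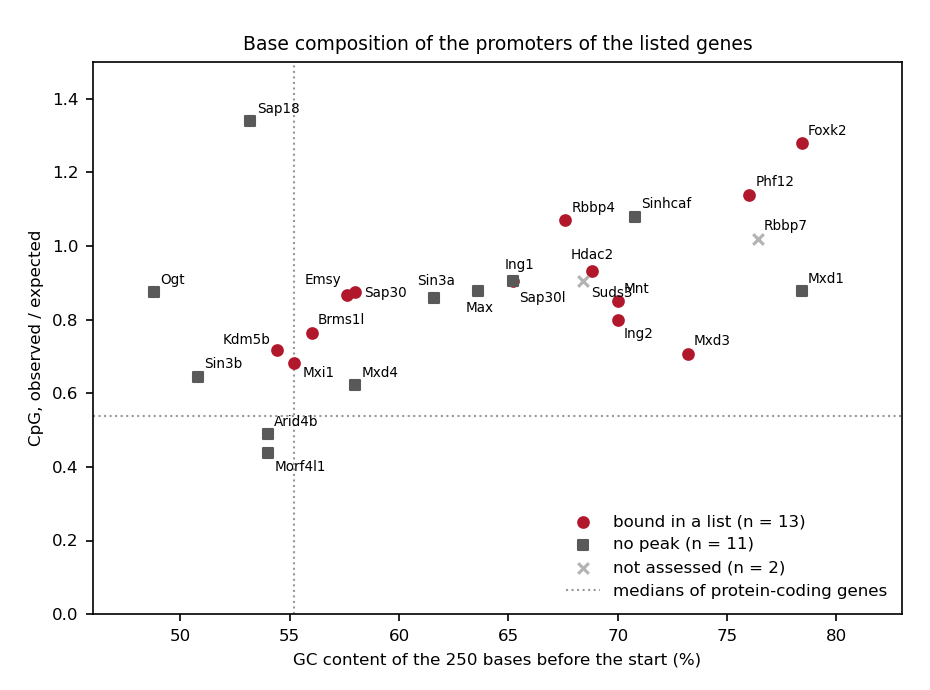
Each point is the promoter of a listed gene, by the percentage of G and C in the 250 bases before its start and the ratio of observed to expected CpG, with bound genes as circles, genes with no peak as squares and genes that were not assessed as crosses; dotted lines are the medians of protein-coding genes. Bound genes spread from 54.4 to 78.4% and squares from 48.8 to 78.4%, so the groups overlap.

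Short motifs were searched on both strands of these 250 bases. The GC box GGGCGG was found at 12 of 13 bound and 8 of 11 unbound members, beside 59.6% of all bound genes and 32.9% of all 27025 promoters of the same length. In the printed promoters it occurs 8 times in Mxd3, some in overlapping runs, and 3 times in Mnt and in Sin3a. The CCAAT box (CCAAT) was found at 6 of 13 and 5 of 11, beside 34.4% of all promoters. The E-box CACGTG, to which MAX and its partners bind, was found at 3 of 26 members with a start (11.5%), beside 6.04% of all promoters. These were Mnt and Rbbp4, both bound, and Mxd4, which had no peak. The E-box CAGCTG preferred by myogenic factors was found in Brms1l alone (12.7% of all promoters), the E2F words TTTCCCGC or TTTGGCGC in Emsy alone (1.33%), and the ETS word CCGGAAG in Suds3 alone (7.23%). None held the palindromic NRF1 word (0.77% of promoters), the forkhead word GTAAACA (3.06%) or the cyclic-AMP element TGACGTCA (1.57%). A match is a run of letters in this window and not a shown site.

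Related gene lists were counted by the same rule. At least 1 peak was found at 7 of 12 assessed genes of the E2F, pocket protein and DREAM group, 5 of 7 genes for other proteins known to recruit SIN3, 3 of 4 of the NCoR/SMRT complex, 3 of 7 of the NuRD complex, 4 of 13 for other histone deacetylases, 2 of 6 of the MYC/MLX network and 2 of 8 of the CoREST complex. Beside them stand 17.3% of all and 23.3% of protein-coding genes, which the shares of the CoREST list (25.0%) and of the other deacetylases (30.8%) were close to. Sin3A in myoblasts was listed at 25.0% of the members, at 14.3% (1 of 7) of the NuRD list and of the other recruiters, at 8.33% (1 of 12) of the E2F group, at 7.69% (1 of 13) of the other deacetylases and at none of the remaining lists, beside 1.64% of all genes. In lists this short, 1 gene makes such a share. Sin3A in myotubes was listed at 4 of 12 genes of the E2F group (E2f8, E2f2, E2f3 and Lin54) and at 2 of the 24 members. It was also listed at 2 of 7 other recruiters, at 1 of 6 genes of the MYC/MLX network and at none of the remaining lists. Beside these stand 3.15% of all and 4.25% of protein-coding genes. Sin3B in myotubes was listed at 11 of the 24 members (45.8%). Its share was higher in the NCoR/SMRT list (3 of 4) and the other recruiters (5 of 7). It was somewhat lower in the NuRD list (3 of 7) and the E2F group (5 of 12). Lower still were the MYC/MLX network (2 of 6), the CoREST list (2 of 8) and the other deacetylases (2 of 13). The background was 14.0% of all and 18.9% of protein-coding genes. Tgif1, for a homeobox repressor, had a peak in all 4 lists, as Mnt did. The lists are small and were not tested against each other.

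**Figure D5:**
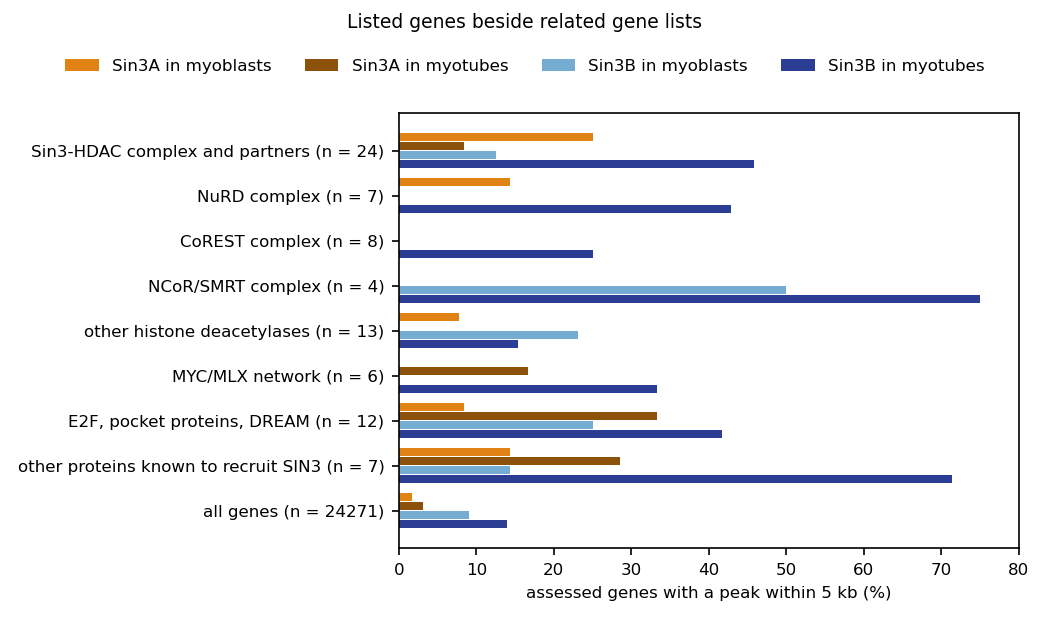
Bars give the percentage of assessed genes of each gene list with a peak centre within 5 kb of a start, coloured by peak list, with the number of assessed genes in brackets. The uppermost group, the Sin3-HDAC genes, reaches 25.0% for Sin3A in myoblasts and 45.8% for Sin3B in myotubes. For Sin3B in myotubes, the NCoR/SMRT genes (3 of 4) and the other recruiters (5 of 7) stand higher. The lowest group is all 24271 genes.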

How the data were processed

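Sin3A and Sin3B were mapped by ChIP-seq. Per the labels' protocols, libraries of about 350 bp had 18 cycles of PCR and were read on the Illumina Genome Analyzer. The authors deposited peak lists as chromosome, start and end, with no other value (the positions are the unit used). For the aligner, peak caller, threshold, build, pooling and use of input, nothing is stated in the sources used here. Read depth is unknown. Starts were taken from the RefSeq promoter table (GRCm38.p6, 32851 starts) and peaks were aligned to it by 1 shift per 10 Mb block, of up to 8 Mb either way. Ties went to the smallest shift. A shift was called clear when it placed at least 1.5 times as many peaks near starts as any shift over 20 kb away. Chromosomes or stretches without starts in the table were left out. The code was tested on simulated blocks with known shifts. Members, gene lists and rules were chosen with earlier results of these data known. Named genes are all 32 members and, of each related list, up to 4 genes bound in most lists. Alternatives covered the distance, the block rule, the gene set and the peaks used. Peak positions are in the files' own build and count from 1. Analyses used Python 3.11.15, numpy 2.4.6, pandas 2.3.3 and matplotlib 3.10.9.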

Additional observations from a re-analysis of the deposited data

How the results depend on the processing

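No paired analysis was possible because the files of a group were identical and no test was made, and for the same reason no replicate could be left out. The number of members bound in any list (13) was 12 at 1 or 2 kb, 10 with blocks reaching 60% or blocks of 20 Mb, 14 with a limit of 40% or blocks of 5 Mb, and 12 with clear blocks only, an alternative chosen after seeing the data. It was 13 of 24 with a distance of 10 kb, peak edges, blocks of 10 or more peaks, or peaks of 50 bp or wider. The same held for protein-coding genes only, the shift fixed without the members, or the residual of the block removed (also chosen after seeing the data). Beside these counts of 13 of 24 stood 17.3% to 23.5% of the genes assessed.

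At 1 kb, Sin3A in myoblasts was listed at 3 members (beside 1.23% of all genes), 3 of them in myoblasts only. Sin3A was listed at both stages at 0, in myotubes only at 2, and both proteins in myoblasts at 0. For such classes by stage or protein, no share of all genes was counted under other distances, blocks or widths. At 2 kb, Sin3A in myoblasts only was found at 3 and both proteins in myoblasts at 1. Blocks reaching 60% left 19 members, with Sin3A in myotubes at 1 (beside 3.21% of all genes) and in myotubes only at 0. With the widest peaks in equal number, any list was found at 7 members (beside 7.5% of all genes). Sin3B in myoblasts was found at 0 (beside 2.91%) and Sin3B in myotubes at 1 (beside 3.0%). Sin3B at both stages was found at 0, Sin3B in myotubes only at 1 and both proteins in myoblasts at 0. With the peaks above each list's median width, any list was found at 7 members (beside 10.8% of all genes). Sin3A in myotubes was found at 0 (both stages 0, myotubes only 0), beside 1.5%. Sin3B was found in myoblasts at 1 (beside 5.02%) and in myotubes at 4 (both stages 1, myotubes only 3), beside 7.77%. Both proteins were found at 1 in myoblasts and 0 in myotubes. Asking that the Sin3A and Sin3B peaks overlap by 1 bp, or by 50% of the shorter, gave 0 members with both proteins in myoblasts and 0 in myotubes. With gene ends for members without a start, chosen after seeing the data, Sin3B in myoblasts was found at 6 of 28 members (beside 9.02% of all genes). Sin3B was found at both stages at 6, Sin3A at both stages at 2 and both proteins in myotubes at 2. Apart from restricting lists by width or asking for overlap, which remove peaks by construction, the cause of these moves was not tested. With list depth unknown, absent peaks have no limit.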
